A study of Mus musculus with 18 samples.

Results

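The 10 genes described here carry the insulin signal and the use of glucose in fat: Insr, Irs1, Irs2, Akt2, Pik3r1, Slc2a4, Slc2a1, Hk2, Pdk2 and Pdk4. They were chosen by name for these roles and make up 10 of the 25124 genes counted. RNA came from inguinal white fat (iWAT), epididymal white fat (eWAT) and brown fat (BAT) of male mice on a C57BL/6J background. WT mice and C6KO mice, which lack caspase-6 in the whole body and descend from matings of heterozygous parents, all ate an HFD holding 60% fat for 12 weeks, so no chow group enters any comparison. The study's methods describe a 10 h fast before tissue collection. Each depot and genotype had 3 libraries, 18 in all, and nothing in the labels says which libraries share an animal.

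Insulin binds its receptor, encoded by Insr, which phosphorylates the docking proteins encoded by Irs1 and Irs2. These recruit PI 3-kinase, whose regulatory subunit p85 alpha comes from Pik3r1, and the lipid it makes activates AKT2, the AKT isoform most tied to glucose uptake in adipocytes. AKT2 sends the insulin-responsive transporter GLUT4, encoded by Slc2a4, to the cell surface, whereas GLUT1, from Slc2a1, carries glucose without insulin. Hexokinase 2, from Hk2, traps glucose by phosphorylation, and the kinases encoded by Pdk2 and Pdk4 switch off pyruvate dehydrogenase and so hold back the entry of carbon from glucose into the mitochondrial cycle. Fasting and fatty acids are known to raise Pdk4, and insulin is known to lower Irs2 and Pdk4 transcripts.

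The reads of each gene were counted over the exons of 1 transcript in mm10. The receptor and docking genes lie at chr8:3150922-3279617 (Insr), chr1:82233105-82291439 (Irs1) and chr8:10984681-11008929 (Irs2), all on the minus strand. Akt2 lies at chr7:27591552-27640826 on the plus strand and Pik3r1 at chr13:101680761-101768217 on the minus strand. Slc2a1 lies at chr4:119108745-119137329 on the plus strand, Hk2 at chr6:82725027-82774454, Pdk2 at chr11:95026258-95041371 and Pdk4 at chr6:5483351-5496278, these 3 on the minus strand. Slc2a4, at chr11:69942286-69948197 on the minus strand, is the 1 member whose counted transcript differed between depots: 2821 exonic bases in iWAT and BAT and 2809 in eWAT.

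The start regions of Pdk2, Pdk4 and Irs2 are shown because these 3 genes had the largest C6KO estimates of the members in both white depots. Each window runs from 250 bases before to 50 after a RefSeq start in GRCm38.p6, and capitals mark CACGTG (E-box) and GGGCGG (GC box), searched on both strands with GTAAACA (FOXO) and AGGTCA (nuclear receptor half-site). The windows lie at chr11:95041322-95041621 (Pdk2), chr6:5496229-5496528 (Pdk4) and chr8:11008880-11009179 (Irs2), and each is written on the minus strand, 5′ to 3′.
Pdk2: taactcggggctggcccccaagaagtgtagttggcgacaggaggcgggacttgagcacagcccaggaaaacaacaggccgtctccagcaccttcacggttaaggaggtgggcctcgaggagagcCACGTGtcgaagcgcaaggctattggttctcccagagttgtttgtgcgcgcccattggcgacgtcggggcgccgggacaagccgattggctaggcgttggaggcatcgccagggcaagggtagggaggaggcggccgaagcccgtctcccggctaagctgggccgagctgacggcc
Pdk4: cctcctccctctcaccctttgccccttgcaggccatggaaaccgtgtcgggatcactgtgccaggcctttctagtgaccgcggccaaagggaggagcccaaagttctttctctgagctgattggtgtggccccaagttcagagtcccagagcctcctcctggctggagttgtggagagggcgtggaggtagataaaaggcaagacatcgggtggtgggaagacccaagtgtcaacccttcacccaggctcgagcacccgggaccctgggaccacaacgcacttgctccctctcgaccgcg
Irs2: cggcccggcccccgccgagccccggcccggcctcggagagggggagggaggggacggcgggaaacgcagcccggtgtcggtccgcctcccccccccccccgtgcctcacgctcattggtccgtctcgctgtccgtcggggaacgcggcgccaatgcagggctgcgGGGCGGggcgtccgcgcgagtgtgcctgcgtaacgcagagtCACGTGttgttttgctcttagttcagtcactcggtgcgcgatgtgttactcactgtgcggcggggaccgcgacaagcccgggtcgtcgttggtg
The Pdk2 window shown held 1 E-box and Irs2 held 1 E-box and 1 GC box, while none of the 4 motifs was in the Pdk4 letters shown. Another Pdk2 window, at chr11:95040826-95041125, held none of the 4 motifs. Of 32851 such windows in the reference, 7.15% held the E-box, 35.7% the GC box, 3.65% the FOXO letters and 16.3% the half-site. In all, 8 of the 10 members had 13 windows. Irs1 held 1 E-box and 2 GC boxes, at least 1 GC box stood in a window of Akt2, Pik3r1, Slc2a1 and Hk2, and no member's window held the FOXO letters or the half-site. Windows of Insr and Slc2a4 were not analysed here.

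Levels are given in CPM, counts per 1000000 library counts after TMM scaling over all 18 libraries, and fold changes come from edgeR's quasi-likelihood test within the samples compared. A gene was called where its Benjamini-Hochberg adjusted p was below 0.05 and its fold change at least 1.5. No fold minimum was set for the interaction tests of whether the deletion's effect differed between depots. Library totals ran from 7803108 to 12428683 counts in BAT, the shallowest depot, from 16506034 to 19043523 for iWAT and from 16717201 to 19139694 for eWAT. Casp6, the deleted gene, lay at 16.2 to 20.8 CPM in the white fat WT libraries and 3.85 to 8.09 in their C6KO counterparts, and at 11.9 to 21.2 against 3.32 to 7.61 in BAT, so the genotypes did not overlap in any depot. Its log2 fold change was -1.85 for eWAT, -1.51 for iWAT and -1.50 for BAT. Brown adipocyte markers summed to 7063 to 17230 CPM in the BAT libraries and to at most 179.7 in white fat.

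Skeletal muscle RNA varied between the BAT libraries by a wide margin. The 16 muscle markers summed to 194 CPM in WT replicate 1, 49860 in WT replicate 2 and 2192 in WT replicate 3, and to 7776, 588 and 9798 in the C6KO replicates. WT replicate 2 thus stood apart from every other library. Some results that involve WT BAT are also given without it, where stated, and all others include it. In white fat these markers summed to between 53.2 and 644 CPM, with Ckm and Myh7 at 0 in the WT iWAT libraries. All 16 estimates were lower in C6KO than in WT BAT, with a median log2 fold change of -1.69 that became 2.35 without WT replicate 2. Macrophage markers were lower in C6KO without overlap in each depot: 452 to 644.5 against 1076 to 1229 CPM in BAT, 803.5 to 1904 against 2392 to 2946 in iWAT, and 4767 to 6104 against 7415 to 11340 in eWAT. The estimate was lower for 12 of 12 of these markers in both white depots and for 11 of 12 in BAT. Adipocyte markers were higher in C6KO without overlap in iWAT, at 40460 to 45200 against 30970 to 34330 CPM, and in eWAT, at 18660 to 24230 against 14410 to 17410, with 9 of 10 and 10 of 10 estimates above 0. Endothelial markers were higher in C6KO eWAT too, at 1010 to 1135 against 667 to 766.5 CPM. Fewer cells of a type and less RNA per cell cannot be told apart in these bulk samples.

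**Figure D1:**
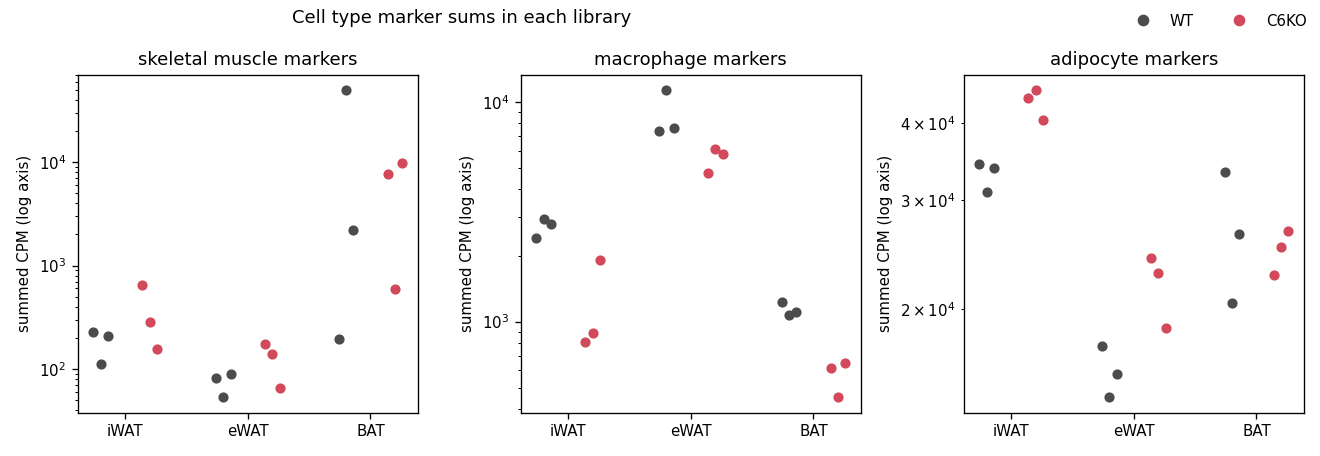
Summed CPM of skeletal muscle, macrophage and adipocyte markers in each of the 18 libraries (points; log axis; WT dark, C6KO red). BAT WT replicate 2 holds 49860 CPM of muscle markers, and the C6KO points for macrophage markers lie below the WT points in all 3 depots.

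Among WT mice Slc2a4, Hk2, Pdk2 and Pdk4 were lowest in eWAT and highest in BAT. Slc2a4, the GLUT4 gene, stood at 133, 129 and 121 CPM in WT iWAT, at 31.8, 32.0 and 35.8 in eWAT and at 264, 338 and 256 in BAT. The 3 depots did not overlap, with eWAT lowest and BAT highest. By edgeR's quasi-likelihood test with Benjamini-Hochberg adjustment, the log2 fold change of Slc2a4 was -1.95 (SE 0.14) for eWAT against iWAT, 1.17 (SE 0.13) for BAT against iWAT and 3.11 (SE 0.14) for BAT against eWAT, and all 3 were called.

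Hk2, whose product makes glucose 6-phosphate, followed the same order. Its levels were 108, 170 and 126 CPM in WT iWAT, 52.2, 62.0 and 52.8 for the eWAT libraries and 312, 391 and 482 for those of BAT. The lowest BAT library lay well above the highest iWAT library. The log2 fold change was 1.56 (SE 0.20) for BAT against iWAT and -1.27 (SE 0.20) for eWAT against iWAT, both called.

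Pdk4 spanned the widest range of the members. It was at 403, 361 and 462 CPM in WT iWAT, 294, 198 and 257 for the eWAT libraries, and 3530, 4349 and 3855 for those of BAT. Pdk2 rose alongside, from 93.5, 86.2 and 89.4 CPM in iWAT and 49.4, 42.6 and 53.3 in eWAT to 351, 444 and 398 in BAT. BAT exceeded iWAT by a log2 fold change of 3.27 (SE 0.19) for Pdk4 and 2.16 (SE 0.13) for Pdk2, and neither gene's BAT libraries came near those of white fat.

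Slc2a4, Pdk2 and Pdk4 were highest among the WT BAT libraries in replicate 2, the one richest in muscle markers. In C6KO BAT Slc2a4 was at 243, 332 and 260 CPM and Pdk4 at 5756, 5116 and 3435 in replicates 1 to 3, of which replicate 2 held the least muscle RNA and replicate 3 the most. WT replicate 1, with the lowest muscle marker sum of the BAT libraries at 194 CPM, held 264 CPM of Slc2a4, 312 of Hk2 and 3530 of Pdk4. In WT BAT Ckm was at 4.38 CPM or more and Myh4 at 10.4 or more, beside 0 and at most 0.056 in WT iWAT. The part of muscle RNA in the BAT levels was not tested. Without WT replicate 2 the log2 fold changes for BAT against iWAT were 1.03 for Slc2a4, 1.57 for Hk2, 2.07 for Pdk2 and 3.18 for Pdk4, and all 4 were called. Those for BAT against eWAT were then 2.98, 2.84, 2.96 and 3.89, all called.

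Of the genes upstream in the insulin signal, Akt2 stood at 200, 239 and 220 CPM in WT iWAT, 95.8, 101 and 102 for the eWAT libraries and 345, 280 and 305 for those of BAT, with eWAT called lower than iWAT (log2 fold change -1.14, SE 0.12) and BAT called higher than eWAT (1.65, SE 0.12; 1.71 and called without BAT WT replicate 2). Insr and Irs1 were called lower in eWAT than in iWAT, at -0.76 (SE 0.15) and -1.03 (SE 0.28). Both were called higher in BAT than in eWAT, at 0.99 (SE 0.15) and 0.72 (SE 0.28), though the Irs1 call was lost without BAT WT replicate 2. Irs2 was at 108, 119 and 99.3 CPM in WT iWAT and 62.8, 56.9 and 62.7 in eWAT but spread from 21.6 to 85.0 in BAT. With all WT libraries, edgeR called none of its depot differences. DESeq2 called Irs2 lower in WT BAT than in iWAT (-1.09, adjusted p 0.00509) and lower in WT eWAT than in iWAT (-0.84, adjusted p 0.0439). In C6KO mice edgeR called Irs2 lower in BAT than in iWAT (-1.45, adjusted p 0.0338). Pik3r1 was lower in WT BAT than in iWAT, at -0.63 (SE 0.17). Slc2a1, the insulin-independent transporter, had another order: it lay at 22.6 to 28.6 CPM in WT eWAT, 15.6 to 20.0 in iWAT and 16.1 to 17 in BAT, and it was called lower in BAT than in eWAT at -0.61 (SE 0.14).

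In counts, 7 of the 10 genes were called lower and 0 higher in WT eWAT against iWAT, where 14% of all genes tested were called lower and 14.3% higher. In WT BAT against iWAT 4 members were called higher and 1 lower, beside 20% and 20.2% of all genes. In WT BAT against eWAT 7 were called higher and 1 lower, beside 25.2% and 25%. Without BAT WT replicate 2 these became 4 higher and 3 lower, and 6 higher and 2 lower: Irs1 and Irs2 were then called lower in BAT than in iWAT, at log2 fold changes of -0.67 and -1.62, and against eWAT the Irs1 call was lost and Irs2 was called lower at -0.78. In C6KO mice the same contrasts gave 0 higher and 6 lower for eWAT against iWAT (13.1% and 9.59% of all genes), 4 higher and 4 lower for BAT against iWAT (17.9% and 19.5%), and 6 higher and 1 lower for BAT against eWAT (23.1% and 26.3%). Hk2, Pdk2, Pdk4 and Slc2a4 were the 4 called higher in BAT than in iWAT in both genotypes. The cell type markers moved between the white depots as well: in WT eWAT against iWAT 9 of 10 adipocyte and 10 of 10 endothelial markers were called lower, and 11 of 12 macrophage and 6 of 6 mesothelial markers were called higher. Adipocyte markers summed to 14410 to 17410 CPM in WT eWAT, below the 30970 to 34330 CPM of WT iWAT, and their part in the lower levels of the members was not tested.

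**Figure D2:**
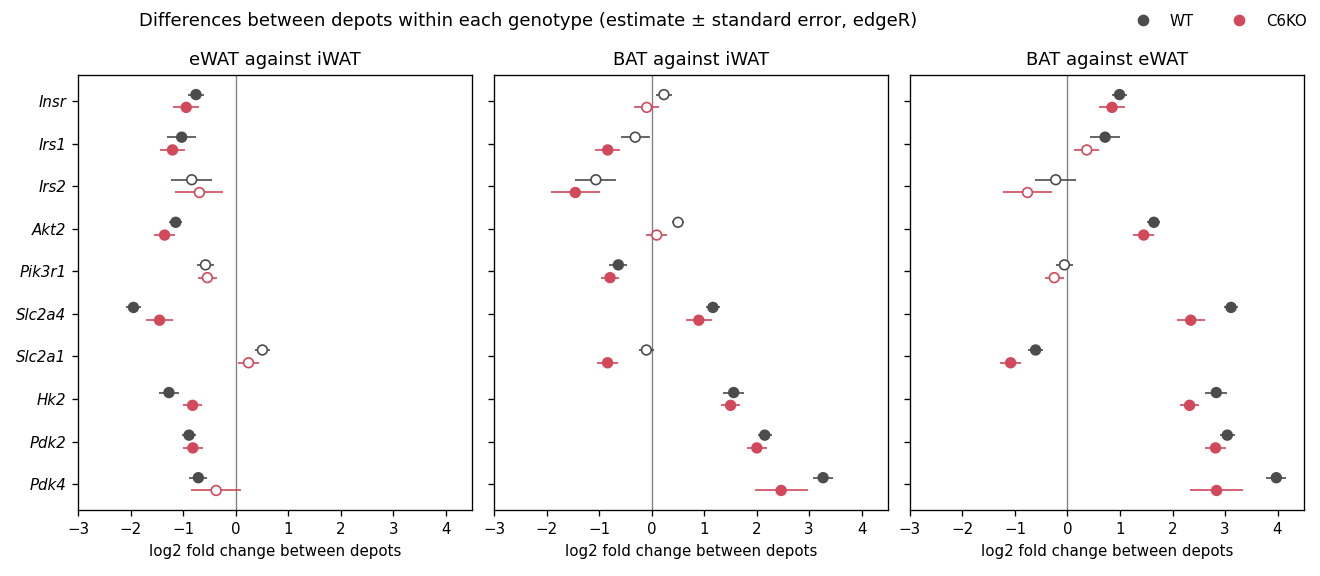
Log2 fold change (x axis, edgeR estimate with its standard error) of each gene between depots within WT (dark) and C6KO (red); filled points were called. Slc2a4, Hk2, Pdk2 and Pdk4 lie to the right in both BAT panels and 9 of the 10 WT estimates lie to the left for eWAT against iWAT.

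Scaled by exon length, so that genes can be compared, Pdk4 had the highest level of the members in each WT depot, at 119 CPM per kilobase in iWAT, 72.5 in eWAT and 1137 in BAT. Akt2 (48.5), Slc2a4 (45.3) and Pdk2 (39.9) followed in iWAT, with Slc2a1 (6.93) and Irs1 (6.60) lowest. In eWAT Akt2, Pdk2 and Pik3r1 lay close together, at 22, 21.5 and 21.1 CPM per kilobase, and Slc2a4 had dropped to 11.8, next to Hk2 at 10.1. In BAT Pdk2 (177), Slc2a4 (101) and Hk2 (71.9) came next after Pdk4, ahead of Akt2 (68.5), while Irs1 was again lowest at 5.28. Many neighbours in these orders had ranges over their libraries that overlapped. In iWAT these were Akt2 with Slc2a4, Pdk2 with Pik3r1, Pik3r1 with Hk2, Insr with Irs2, and Slc2a1 with Irs1. In eWAT they were Akt2 with Pdk2, Pdk2 with Pik3r1, and each neighbouring pair from Hk2 through Slc2a1 and Insr to Irs2. In BAT they were Hk2 with Akt2, Pik3r1 with Insr, Irs2 with Slc2a1, and Slc2a1 with Irs1.

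The make-up of the gene families also differed by depot. The glucose transporters summed were Slc2a1, Slc2a3, Slc2a4, Slc2a5, Slc2a8, Slc2a10 and Slc2a12, without the other transporter genes. Of their reads per length, Slc2a4 made up 60.5% to 61.0% in WT iWAT, 30.0% to 30.8% for eWAT and 78.4% to 84.2% for BAT. Within the hexokinases Hk2 held 41.3% to 52.7% in WT iWAT, 12.9% to 13.7% for eWAT and 68.0% to 79.3% for BAT, and Hk3, a hexokinase known from myeloid cells, held 64.8% to 67.1% in eWAT, the depot with the highest macrophage marker sums. Akt2 was 43.6% to 47.1% of the AKT reads per length in WT iWAT and 20.0% to 21.4% in eWAT, where Akt1 held the larger share. Pdk4 made up most of the PDK reads per length in all 18 libraries, from 61.2% to 85.1%. The Pdk4 to Pdk2 ratio per length was 6.33 to 6.58 in the 3 WT BAT libraries and 2.74 to 3.89 in the 6 WT libraries of white fat.

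**Figure D3:**
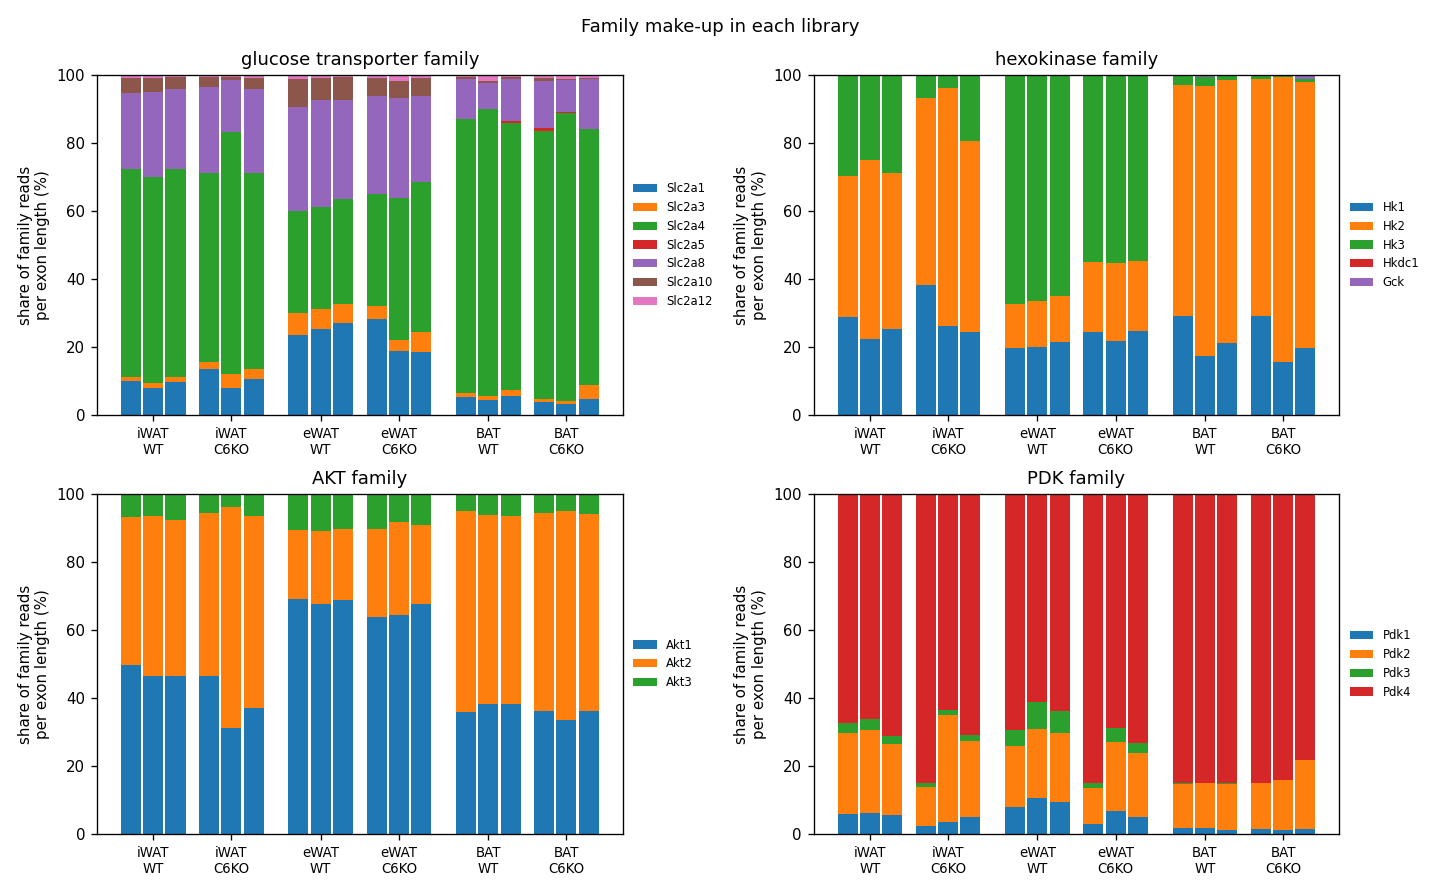
Share (percent) of each family's reads per exon length taken by each member, 1 bar per library, for the glucose transporters named above, hexokinases, AKT kinases and PDKs. Slc2a4 and Hk2 take their smallest shares in eWAT, and Pdk4 is the main PDK in all 18 libraries.

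Deletion of caspase-6 went with higher Pdk2 in all 3 depots, without overlap between the genotypes, and the difference passed the test in eWAT. In eWAT Pdk2 stood at 49.4, 42.6 and 53.3 CPM in WT (48.5 ± 5.41, SD, n = 3) and at 90.7, 75.3 and 78.4 in C6KO (81.5 ± 8.12, SD, n = 3). Every C6KO library lay above every WT library. The log2 fold change was 0.75 (SE 0.12), with an adjusted p of 0.0432 by edgeR's quasi-likelihood test after Benjamini-Hochberg adjustment. The call rested on few libraries: it was lost in 5 of 6 fits that left out 1 library, all but the fit without C6KO replicate 2, and the adjusted p ran from 3.48e-05 with DESeq2 to 0.177 without WT replicate 2 over the 13 alternatives, while the log2 fold change stayed between 0.67 and 0.83.

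In iWAT Pdk2 was at 93.5, 86.2 and 89.4 CPM in WT and 127, 192 and 115 in C6KO. The WT libraries lay close together, and C6KO replicate 2 was the highest. The log2 fold change of 0.69 (SE 0.19) gave an adjusted p of 0.167 by edgeR and 0.0279 by DESeq2. In BAT Pdk2 was at 351, 444 and 398 CPM in WT and 589, 582 and 576.5 in C6KO, the 3 C6KO libraries nearly equal. Here the log2 fold change was 0.56 (SE 0.17), and the adjusted p of 0.191 by edgeR was 0.0151 by DESeq2, which put the fold change just short of the minimum of 1.5. Without BAT WT replicate 2 it was 0.67, with an adjusted p of 0.103 by edgeR.

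Pdk4 showed the largest estimates of the members in white fat, with 1 C6KO library far above the rest in each depot. In eWAT it was at 294, 198 and 257 CPM in WT against 1114, 393 and 468.5 in C6KO, and in iWAT at 403, 361 and 462 in WT and 1426, 590.5 and 555 in C6KO. Replicate 1 was the high C6KO library both times, though the genotypes did not overlap without it either. The log2 fold change was 1.41 (SE 0.44) in eWAT and 1.08 (SE 0.37) in iWAT, with edgeR adjusted p of 0.190 and 0.230. DESeq2 called Pdk4 in iWAT, at an adjusted p of 0.0207, against 0.0207 to 0.548 over all 13 alternatives. In BAT the genotypes overlapped, at 3530 to 4349 CPM in WT and 3435 to 5756 in C6KO.

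Slc2a4 was higher in C6KO than in WT in eWAT, though not past the test. Its C6KO libraries lay at 40.1, 62.8 and 59.05 CPM beside 31.8, 32.0 and 35.8 in WT, again without overlap. The log2 fold change was 0.71 (SE 0.16), the adjusted p was 0.0655 by edgeR and 0.00395 by DESeq2, and it ran from 0.00395 to 0.257 over the 13 alternatives. In iWAT C6KO replicate 2 alone was high, at 208 CPM beside 121 and 117, while the WT libraries lay at 121 to 133. Without it the log2 fold change of 0.22 turned to -0.10. In BAT the genotypes spanned 256 to 338 and 243 to 332 CPM, a log2 fold change of -0.03 (SE 0.20) that was 0.14 without WT replicate 2.

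Hk2 in eWAT also separated the genotypes, with 52.2, 62.0 and 52.8 CPM in WT and 74.8, 84.4 and 72.5 in C6KO. Its log2 fold change of 0.48 (SE 0.11) was below the fold minimum, and the adjusted p was 0.0687 by edgeR. In iWAT and BAT the genotypes overlapped, with log2 fold changes of 0.04 (SE 0.19) and -0.0015 (SE 0.23).

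Of the receptor and docking genes, Irs2 varied most. In eWAT it was at 62.8, 56.9 and 62.7 CPM in WT and 161, 64.1 and 126 in C6KO, so that C6KO replicate 2 lay just above WT. The log2 fold change of 0.95 (SE 0.32) had an adjusted p of 0.200 by edgeR and 0.00610 by DESeq2, within 0.0061 to 0.519 over the 13 alternatives. In iWAT the C6KO libraries spread from 111 to 273 CPM beside 99.3 to 119 in WT, for a log2 fold change of 0.81 (SE 0.30) and an adjusted p of 0.247 by edgeR. Insr and Irs1 had log2 fold changes of 0.62 (SE 0.21) and 0.63 (SE 0.24) in iWAT, where C6KO replicate 3 stayed within the WT range for both. Akt2 was higher without overlap in iWAT, at 255 to 426 against 200 to 239 CPM, and in eWAT, at 111.6 to 134.5 against 95.8 to 102, with log2 fold changes of 0.53 (SE 0.20) and 0.30 (SE 0.10) that were not called.

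Pik3r1 was the exception among the signalling genes, with estimates below 0 in all 3 depots. It was lower in C6KO without overlap in eWAT, at 123 to 137 against 140 to 156 CPM, and in BAT, at 100 to 123 against 128.1 to 153.5. Slc2a1 was also lower without overlap in BAT, at 10.9 to 15.5 against 16.1 to 17 CPM. The log2 fold changes in BAT were -0.34 (SE 0.16) for Pik3r1 and -0.36 (SE 0.20) for Slc2a1, or -0.23 and -0.33 without WT replicate 2, and neither was called.

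**Figure D4:**
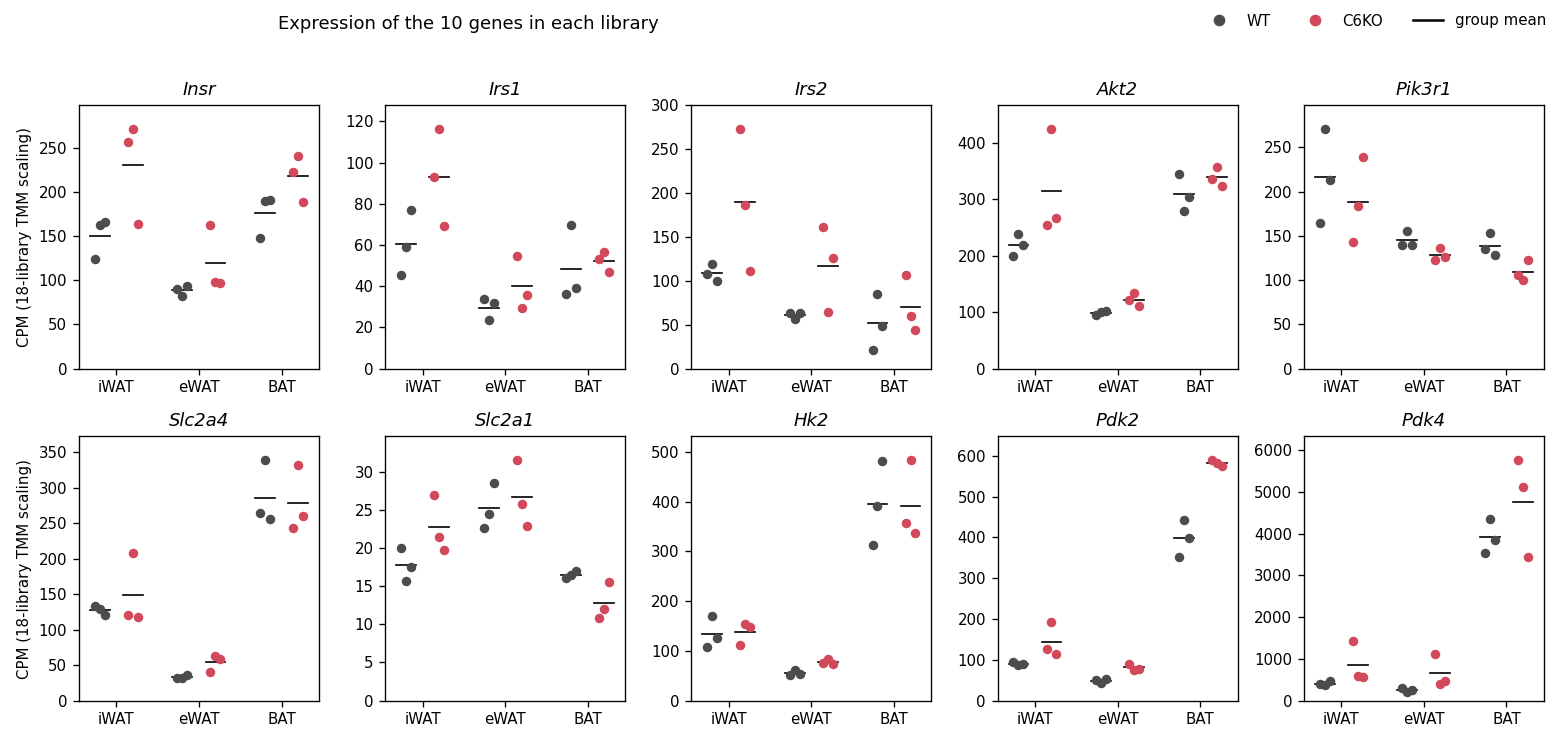
CPM of each of the 10 genes (1 panel a gene, y axis from 0) in the 3 depots, with WT libraries dark, C6KO libraries red and bars at the group means. Pdk2 points of C6KO lie above those of WT in all 3 depots, and BAT holds 3435 to 5756 CPM of Pdk4 in C6KO.

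In counts, edgeR called 0 of the 10 genes in iWAT, where it called 0.0275% of all genes, 1 in eWAT (0.746%) and 0 in BAT (1.24%). DESeq2 called 2 in iWAT, Pdk2 and Pdk4 (3.5% of all genes), 3 in eWAT, Irs2, Pdk2 and Slc2a4 (3.16%), and 0 in BAT (2.91%). These shares moved with single libraries: edgeR called 4 of 14533 genes in iWAT but 1278 of 14798 without C6KO replicate 3, when 3 members were called, and 3 or 4 with any other iWAT library left out. In eWAT it called 111 genes, and 2 to 347 with 1 library left out, and in BAT 168 genes, and 28 to 178. At an unadjusted p below 0.05 by edgeR there were 6 members in iWAT (16.5% of all genes), 6 in eWAT (17.6%) and 1 in BAT (13.2%). The genotypes did not overlap for 3 members in iWAT (23.2% of all genes), 8 in eWAT (23.2%) and 3 in BAT (20.2%). The estimate was above 0 for 9 members in iWAT (53.8% of all genes), 9 members in eWAT (49.1%) and 6 members in BAT (46.1%). The members' medians were 0.58, 0.46 and 0.13 beside all-gene medians of 0.03, -0.01 and -0.03, and the BAT median was 0.27 without WT replicate 2. Adipocyte markers were higher and macrophage markers lower in the same white fat libraries, and their part in these differences was not tested.

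**Figure D5:**
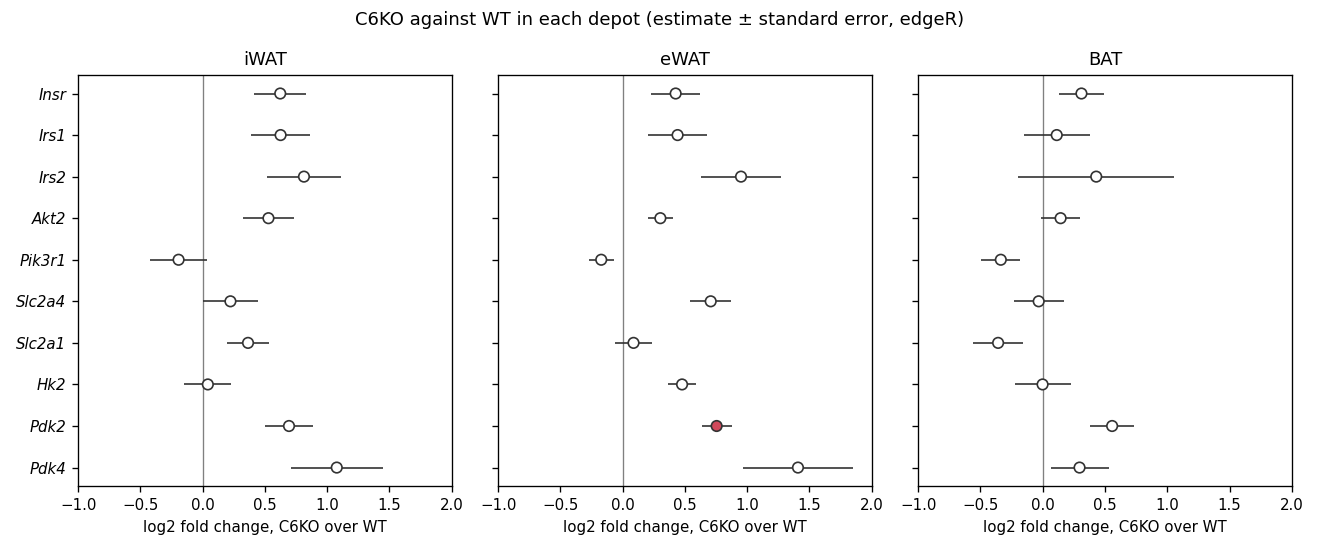
Log2 fold change of C6KO over WT (x axis, edgeR estimate with its standard error) for the 10 genes in each depot; the filled point was called. Pdk2 in eWAT is the 1 filled point, and 9 of the 10 estimates lie above 0 in iWAT and in eWAT.

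Whether the effect of the deletion differed between depots was tested as an interaction over the 18 libraries, and no member was called. For eWAT against iWAT edgeR called 0 members (0% of all genes) and DESeq2 0 (0.0683%), with 0 members at an unadjusted p below 0.05 (5.48%). For BAT against iWAT edgeR called 0 (0.183%) and DESeq2 0 (0.835%), with 1 member at an unadjusted p below 0.05 (9.93%): the effect on Slc2a1 was lower in BAT by 0.73 log2 units, with an adjusted p of 0.330. For BAT against eWAT edgeR called 0 (0.536%) and DESeq2 0 (1.74%), and the 1 member at an unadjusted p below 0.05 (11.2%) was Slc2a4, whose effect was lower in BAT by 0.74 log2 units at an adjusted p of 0.345. Without BAT WT replicate 2 no member was called for either BAT interaction, and these values were -0.73 for Slc2a1 (adjusted p 0.307) and -0.60 for Slc2a4 (adjusted p 0.452).

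The wider pathway was read from 8 lists of 150 genes. Between C6KO and WT, edgeR called 0 of 142 tested in iWAT, 1 of 144 in eWAT, Pdk2 itself, and 0 of 141 in BAT, beside 0.0275%, 0.746% and 1.24% of all genes. Members included, DESeq2 called 0 higher and 3 lower for BAT, 6 and 1 for eWAT and 4 and 2 for iWAT. Of all genes it called 2.91% in BAT, 3.16% in eWAT and 3.5% in iWAT. The pathway genes below were named after their values were seen. In iWAT the genes beyond the members were Slc2a3 and H6pd, higher by 1.38 and 0.66, and Enpp1 and Pfkfb4, lower at -1.43 and -1.33. Among those in eWAT, H6pd was higher by 0.64 and Pik3cd was lower at -0.64. In BAT Grb14, Hk3 and Pik3cg were lower at -0.70, -1.54 and -1.39, the last 2 of these genes known from leukocytes. The list medians stayed near those of all genes: for eWAT they lay between -0.13 and 0.18 on the log2 scale, for iWAT between -0.09 and 0.18 and for BAT between -0.27 and 0.15. Among the insulin receptor and docking genes, 10 of 17 estimates were above 0 in iWAT and 11 of 17 in eWAT, and of the 15 genes of pyruvate entry and pyruvate dehydrogenase 6 and 12 were. Over all genes tested, 53.8% of estimates were above 0 in iWAT and 49.1% in eWAT.

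Between WT depots the pathway differed widely, where 20% of all genes were called higher and 20.2% lower for BAT against iWAT. In that comparison 12 of 15 genes of pyruvate entry and pyruvate dehydrogenase were called higher and 2 lower, with a median log2 fold change of 1.85 beside 0.01 for all genes. Pdha1 and Pdhb, subunits of the enzyme that PDKs switch off, were higher in BAT by 2.66 (SE 0.15) and 2.66 (SE 0.21), next to Pdk4 itself. In glycolysis 18 of 26 were called higher and 3 lower (median 1.31), led in size by Pgam2, Eno3 and Ldhb, and in glycogen metabolism 12 of 16 were called higher (median 1.27), Pygm and Ppp1r3b among them. Pgam2, Eno3 and Pygm encode muscle forms of their enzymes. In the BAT WT replicates 1, 2 and 3 they stood at 0.44, 273 and 9.47 CPM (Pgam2), 7.01, 809 and 48.7 (Eno3) and 6.57, 1428 and 80.2 (Pygm), the order of the muscle marker sums. Ldhb and Ppp1r3b did not follow that order, at 574, 341.5 and 419 and at 182.5, 108 and 167 CPM. Without BAT WT replicate 2 the counts called higher were 12 of 15, 16 of 27 and 12 of 16. In that fit 14 of 16 muscle markers were still called higher in BAT (median log2 fold change 6.63), so muscle RNA remained. Its part in these counts was not tested.

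In the pentose phosphate pathway 5 of 8 genes were called higher in WT BAT than in iWAT and 1 lower, with Tkt, Pgls and Taldo1 at log2 fold changes of 1.62, 1.40 and 0.97. In the receptor and docking list 1 of 17 was called higher and 5 lower (median -0.47): the adaptor gene Grb2 was lower at -0.94, and Sh2b2 was higher by 1.35. Among the PI3K, AKT and downstream kinases 4 of 34 were called higher and 6 lower, beside 20% and 20.2% of all genes, and Pik3cb was lowest at -1.71. Of the GLUT4 storage and traffic genes 3 of 18 were called higher and 2 lower, Slc2a4 first, then Rhoq at 1.08 and Tbc1d4, the AKT substrate that holds GLUT4 inside the cell, at 0.97. Tbc1d4 stood at 56.8, 135 and 76.3 CPM in BAT WT replicates 1, 2 and 3, the order of the muscle marker sums. Its mean in WT iWAT was 45.9 CPM. Rhoq, at 437, 374 and 451 CPM, did not follow that order. Of the other glucose transporters 1 of 8 was called in each direction, with Slc2a10 lower at -1.98 and Slc2a3 higher by 0.71. Without BAT WT replicate 2 the counts higher and lower were 5 and 1 of 8 for the pentose phosphate pathway, 1 and 7 of 17 for the receptor and docking genes, 7 and 8 of 34 for the kinases, 3 and 2 of 18 for GLUT4 traffic and 2 and 1 of 10 for the other transporters, while 3264 and 3414 of 15509 genes in all were called.

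For WT eWAT against iWAT 9 of 15 genes of pyruvate entry and pyruvate dehydrogenase were called lower and 0 higher, beside 14% and 14.3% of all genes, among them Pcx (-1.38), Mpc2 (-1.14) and Dlat (-0.96). Of the receptor and docking genes 6 of 17 were called lower and 4 higher, with Grb14, an inhibitory adaptor of the receptor, at -2.26 (SE 0.17) and Enpp1 at 2.31 (SE 0.26). The leukocyte forms of the PI3K catalytic subunit, Pik3cg and Pik3cd, were higher by 1.59 and 1.55, and Hk3 by 1.81, in the depot where 11 of 12 macrophage markers were called higher. Whether those cells carry the differences was not tested.

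By the distance between centred means of log2(CPM + 1) over the 6 groups, the genes most like Slc2a4 among 15865 others were Cecr2 (0.417), Msantd3 (0.424) and Chdh (0.506). Cecr2 stood at 16.1 and 20.1 CPM in WT and C6KO iWAT, 5.08 and 8.78 for eWAT and 39.3 and 44.6 for BAT. Without BAT WT replicate 2 the same 3 genes were nearest to Slc2a4. The nearest to Pdk2 were Cap2 (0.259), Rbpms2 (0.295) and Mlycd (0.343), the last of which encodes malonyl-CoA decarboxylase. Cap2 owed its place to BAT WT replicate 2: its mean was 39.8 CPM in WT BAT and 15.4 in C6KO BAT, opposite in direction to Pdk2, and without that library its WT mean was 2.75 CPM and it ranked 711. The nearest were then Mlxipl (0.335), Acad11 (0.373) and Mlycd (0.385), with Rbpms2 at rank 5. Mlycd stood at 41.4 and 61.8 CPM in iWAT, 26.9 and 32.8 for eWAT and 193 and 277 for BAT. These distances describe 6 group means that share their libraries and scaling with the gene they are compared with.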

How the data were processed

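The authors aligned poly(A) RNA reads to mm10 with STAR and counted exon reads per gene with HOMER, condensing each gene to 1 transcript; tool versions, annotation and strandedness are not given in the sources used here. The deposited values are raw counts, 1 table per depot, for 25124 genes, with a transcript length column that was used for levels per kilobase. For 2619 genes the transcript kept differed between tables. C6KO was compared with WT by edgeR 4.0.16 (R 4.3.3, limma 3.58.1; filterByExpr, TMM, robust quasi-likelihood) on the 6 libraries of a depot, depots on the 9 libraries of a genotype, and interactions on all 18. Standard errors (SE) were derived as the absolute log2 fold change over the square root of the quasi-likelihood F statistic, since edgeR reports none. DESeq2 1.42.0 was an alternative, with other scalings, filters, left-out libraries and a replicate block. The spread between replicates (common coefficient of variation) was largest in BAT, at 0.320, beside 0.216 for iWAT and 0.191 for eWAT. The labels call the libraries biological replicates, so p-values measure the spread between 3 samples a group. Members, gene lists and thresholds were chosen with earlier results of these data known. Named pathway genes are those called between C6KO and WT and up to 3 per list by size of change between WT depots; some genes that this rule selects are not reported here. Figures used matplotlib 3.10.9 in Python 3.11.15.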

Additional observations from a re-analysis of the deposited data

How the results depend on the processing

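In iWAT the number of the 10 genes called between C6KO and WT was 0, and became 2 with DESeq2, 1 with all 18 libraries in one fit, and 0 to 3 when 1 library was left out (3 without C6KO replicate 3, Insr, Irs2 and Pdk2, where 1278 of 14798 genes were called). In eWAT it was 1, and became 3 with DESeq2, 2 without a filter on low counts, 0 with all 18 libraries in one fit, and 0 to 2 with 1 library left out. With the replicate number as a block it was 3 in eWAT, where Slc2a4 and Pdk4 joined Pdk2 (adjusted p 0.0302, 0.0403 and 0.0161 by edgeR), while the calls over all genes went from 111 to 414 in eWAT, from 4 to 62 in iWAT and from 168 to 113 in BAT. The block also called Irs2 lower in WT BAT than in iWAT (adjusted p 0.0486 beside 0.0522) and in C6KO BAT than in eWAT (0.0465 beside 0.193), lost Irs1 in WT BAT against eWAT (0.0925 beside 0.0491), and changed no other call of a member. The numbers were not taken to pair WT with C6KO libraries, whose same-numbered deviations had mean correlations of -0.263 (BAT), 0.066 (eWAT) and 0.046 (iWAT). Those values cannot show whether depots of a genotype share animals. Between WT depots the means were 0.118 for iWAT with eWAT, 0.052 for iWAT with BAT and 0.025 for eWAT with BAT. The C6KO means, in the same order, were 0.073, 0.054 and -0.002. Deviations from the mean of 3 libraries sum to 0. The values of differently numbered libraries therefore nearly follow from these and give no separate baseline. Whether depots share animals was not tested, so the depots may not be independent samples. Estimates close to 0 changed sign. Hk2 in iWAT was -0.0183 under total counts and ran from -0.0931 to 0.24 with 1 library left out, and in BAT it was 0.0199 with DESeq2, 0.0173 with its size factors, 0.0258 without a filter, 0.0166 with at least 10 counts in every library, 0.00573 with the block and -0.16 to 0.21 with 1 library left out. Slc2a4 ran from -0.10 to 0.35 in iWAT and from -0.15 to 0.14 in BAT with 1 library left out, and was 0.00145 in BAT without a filter. Slc2a1 in eWAT ran from -0.0393 to 0.19 and Irs1 in BAT from -0.0379 to 0.51. The cause was not tested. Scaling by total counts alone moved the all-gene median to 0.15 for WT eWAT against iWAT and to -0.13 and -0.26 for WT BAT against iWAT and eWAT, and the share of all calls that were higher from 50.4% to 64%, from 49.9% to 39.1% and from 50.2% to 35.3%; for C6KO against WT in eWAT it went from 72.1% to 58.2%. BAT libraries were the shallowest and the most variable.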
